A study of Homo sapiens with 10 samples.

Results

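The 10 genes described here are p53 targets and genes of cell cycle arrest: CDKN1A, CDKN1B, GADD45A, GADD45B, BTG2, CCND1, CCNE1, MDM2, PMAIP1 and BBC3. The measurement is ZEB1 occupancy by CUT&RUN, in which an antibody directs a nuclease to cut out the DNA that a protein is bound to. Of the 52981 consensus ZEB1 sites of the series, 55 were assigned to these genes, because their midpoint lay in the RefSeq GRCh38 gene or within 20 kb of either end. Every one of the 10 genes had at least 2 such sites, and CCND1 and GADD45B had 10 each. BBC3 had 8 sites, PMAIP1 6, CDKN1A 5, CDKN1B, GADD45A and CCNE1 4 each, and MDM2 and BTG2 2 each.

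The cells were treated with 300 nM eribulin for 24, 48 or 72 h, or left untreated, and each of these 4 conditions had 2 ZEB1 libraries. Eribulin, which the sample labels spell Erubilin, is a drug that blocks microtubule growth and arrests dividing cells in mitosis. The labels give the cell type as Er-/Pr-/Her2-, that is, breast cancer cells without the oestrogen, progesterone and HER2 receptors, and name the treated cells MDA_ERI and the untreated cells MDA_Parental without saying which MDA line was used, so a difference between lines and the drug cannot be told apart. The untreated cells carry no time label, so drug exposure cannot be told apart from days of growth. Tn5 transposase, which has no role in CUT&RUN, is also named in the descriptions, and 2 IgG libraries of the 10 samples were not analysed here. The cell identity could not be checked against marker genes, since expression was not measured in the files used here.

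ZEB1 is a zinc-finger and homeodomain protein that binds E-box-like sequences, represses epithelial genes and drives epithelial-mesenchymal transition. The p53 protein is a transcription factor that damaged or stressed cells stabilise. It switches on the CDK inhibitor p21 (CDKN1A), which stops the cell cycle, the ubiquitin ligase MDM2, which degrades p53 in return, and the cell-death proteins NOXA (PMAIP1) and PUMA (BBC3). Cyclin D1 (CCND1) and cyclin E1 (CCNE1) push cells from G1 into S phase, the step that p21 and its relative p27 (CDKN1B) block.

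Some of the promoters named in the results below are shown first, to let the ZEB1-type motifs be read in place. Each is the 250 bases before a gene start in the RefSeq table of build GRCh38.p14, written 5′ to 3′ on the strand of the gene, with the E-box-like motif CAGGTG (reverse complement CACCTG), or the ZEB1-type variant CAGGTA (reverse complement TACCTG), in capitals. CDKN1A (chr6:36678464-36678713, plus strand) and CCNE1 (chr19:29811741-29811990, plus strand) carried the start site with the most counts and the one start site that was higher at 24 h. MDM2 is given at its upstream start (chr12:68807922-68808171, plus strand), under a consensus site, and at its downstream start (chr12:68808767-68809016, plus strand), the p53-responsive promoter, which no consensus site overlapped. BBC3 (chr19:47232668-47232917, minus strand) held the one motif found in a start window with a site.
CDKN1A: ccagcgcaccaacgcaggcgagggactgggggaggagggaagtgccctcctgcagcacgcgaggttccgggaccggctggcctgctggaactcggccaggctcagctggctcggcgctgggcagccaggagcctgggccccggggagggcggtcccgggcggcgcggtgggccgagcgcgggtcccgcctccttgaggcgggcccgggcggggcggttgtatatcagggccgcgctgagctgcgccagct
CCNE1: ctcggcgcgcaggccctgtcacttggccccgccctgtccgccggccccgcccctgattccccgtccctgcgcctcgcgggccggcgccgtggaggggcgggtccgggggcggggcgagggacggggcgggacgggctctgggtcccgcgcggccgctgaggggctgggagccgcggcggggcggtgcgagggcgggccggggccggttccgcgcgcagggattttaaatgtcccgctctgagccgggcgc
MDM2 upstream start: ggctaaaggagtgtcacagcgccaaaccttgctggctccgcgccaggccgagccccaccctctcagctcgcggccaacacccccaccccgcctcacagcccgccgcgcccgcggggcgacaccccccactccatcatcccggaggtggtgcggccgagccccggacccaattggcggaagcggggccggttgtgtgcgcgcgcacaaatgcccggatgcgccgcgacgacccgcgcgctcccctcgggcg
MDM2 downstream start: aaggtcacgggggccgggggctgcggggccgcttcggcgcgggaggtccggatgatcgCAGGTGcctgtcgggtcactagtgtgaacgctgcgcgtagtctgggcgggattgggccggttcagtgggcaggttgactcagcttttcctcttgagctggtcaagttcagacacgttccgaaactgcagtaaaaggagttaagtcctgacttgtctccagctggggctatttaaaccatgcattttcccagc
BBC3: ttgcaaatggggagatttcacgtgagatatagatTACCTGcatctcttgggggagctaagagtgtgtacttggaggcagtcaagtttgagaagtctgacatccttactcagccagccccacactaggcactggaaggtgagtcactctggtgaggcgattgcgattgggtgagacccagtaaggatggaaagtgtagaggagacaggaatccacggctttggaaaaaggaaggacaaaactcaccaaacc

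The search covered both strands, and the promoters of 8 of the 10 genes were in the table. A CAGGTG lay 192 bases before the downstream MDM2 start, and TACCTG, the reverse complement of CAGGTA, lay 216 bases before the BBC3 start. Neither motif occurred in the windows of CDKN1A, CDKN1B, GADD45B, BTG2, CCNE1, PMAIP1 or the upstream MDM2 start. Among the 35116 promoter windows of the table, 17.5% held CAGGTG, 7.99% CAGGTA and 23.8% either of them. The windows of CCNE1, CDKN1A and BTG2 were 81.2%, 76.4% and 74.8% G and C, that of BBC3 was 49.2%, and the median over all promoters was 58%. These matches describe the letters of the windows only.

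Counts within consensus sites came to 3561455 and 3146228 in the control libraries, 1886419 and 1799143 after 24 h, 1346179 and 1380070 after 48 h, and 1207987 and 1130706 after 72 h. The 2 libraries of a condition differed by less than sampling noise (chi-square per degree of freedom 0.83 to 0.951 within conditions, 2.03 to 8.54 between them), so each pair was counted as 1 sample (n = 1 per condition). All tests therefore compare these libraries and not the conditions, with no check between cultures, and intervals cover counting error only, since reads without molecular identifiers are not independent molecules. Levels are CPM, the counts of a library brought to a common total, after TMM scaling, which sets the typical site equal between libraries, and the value of a condition pools its 2 libraries. All differences between conditions are log2 ratios of these levels. A site was called higher or lower where edgeR's quasi-likelihood test, fitted over 46436 sites, gave a Benjamini-Hochberg adjusted p under 0.05 and the levels differed at least 2-fold. In a population of cells, ZEB1 on fewer cells and less ZEB1 per cell cannot be told apart. Scaling to the background level of the peak lists in place of TMM moved the median log2 difference of all tested sites to −0.91 after 24 h, −1.42 after 48 h and −1.50 after 72 h, against 0.02, −0.01 and 0.00 with TMM, so directions given below are relative to the typical site.

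Most of the 55 sites were not called at any time, and the 9 sites called at 24 h were mainly lower while the 9 called at 72 h were mainly higher. Of 53 member sites with enough counts to test, 6 were lower (11.3%) and 3 higher (5.66%) at 24 h, against 13.5% and 14.9% of the 46436 tested sites and 28.4% called either way. At 48 h, 3 were lower and 3 higher (5.66% each), against 7.55% and 10.5% of all sites, or 18% either way. At 72 h, 3 were lower (5.66%) and 6 higher (11.3%), against 8.55% and 12.2% of all sites, or 20.8% either way. With TMM, none of these 6 shares of member sites was above that of all sites. Some of these calls, named with the peak lists below, were at sites with a peak in 1 list only. Their direction was at least partly set by how the sites were made. The median log2 difference of the 53 tested member sites from control was −0.38 after 24 h, −0.09 after 48 h and 0.05 after 72 h. With background scaling, 36 members were lower after 24 h (67.9%), 40 after 48 h (75.5%) and 41 after 72 h (77.4%), each above the 45.7%, 72.7% and 73.2% of all sites. None was then higher at any time, against 3.36%, 3.14% and 1.63% of all sites.

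**Figure D1:**
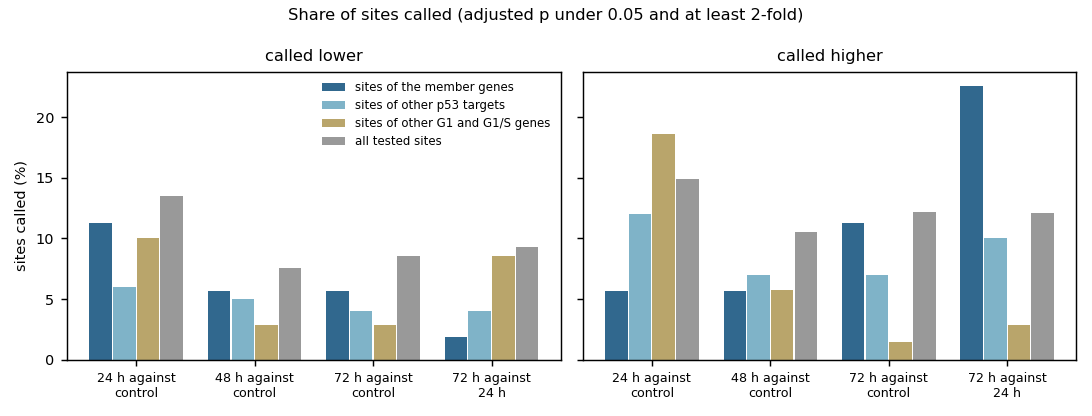
Percentage of sites called lower and higher (vertical axes, %) in each comparison, for the member sites, sites of other p53 targets, sites of other G1 and G1/S genes and all tested sites. At 24 h 5.66% of the members were higher, against 14.9% of all sites, and between 72 h and 24 h 22.6% were higher, against 12.1%.

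In the direct comparison, 12 of the 53 sites were higher at 72 h than at 24 h (22.6%) and 1 was lower (1.89%), against 12.1% and 9.29% of all tested sites (21.4% either way), and the median log2 difference was 0.36 for the members and −0.01 over all sites. The 12 sites were in CDKN1A, GADD45B, CCND1 and BBC3, with 6 of them at CCND1 and 4 at BBC3, so many of them share a gene. Among them, the CCND1 site 14.3 kb past the start had a peak in the 72 h list alone. Its rise is largely fixed by how the sites were made. All 12 stayed positive with background scaling, but 2 of them were still called, and 7 members were then called lower, against 4.11% higher and 29.3% lower over all sites. Whether the members' share differs from that of all sites was not tested, and comparisons with 24 h share its libraries.

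Member sites were spread over starts, gene bodies and flanks. Their median length was 296 bases, against 229 over all consensus sites, and their median control level was 50.5 CPM per kb (14.7 to 177.9), against 46.2 over all. By place, 10 lay at a start (within 250 bases before to 50 after it), 10 elsewhere in the gene, 15 upstream and 20 downstream, and 13 overlapped another annotated gene. Among protein-coding genes in the promoter table, 54.6% had a site in that window, and all 8 members in the table did. GADD45A and CCND1 had one too, which makes 10 of 10 members.

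**Figure D2:**
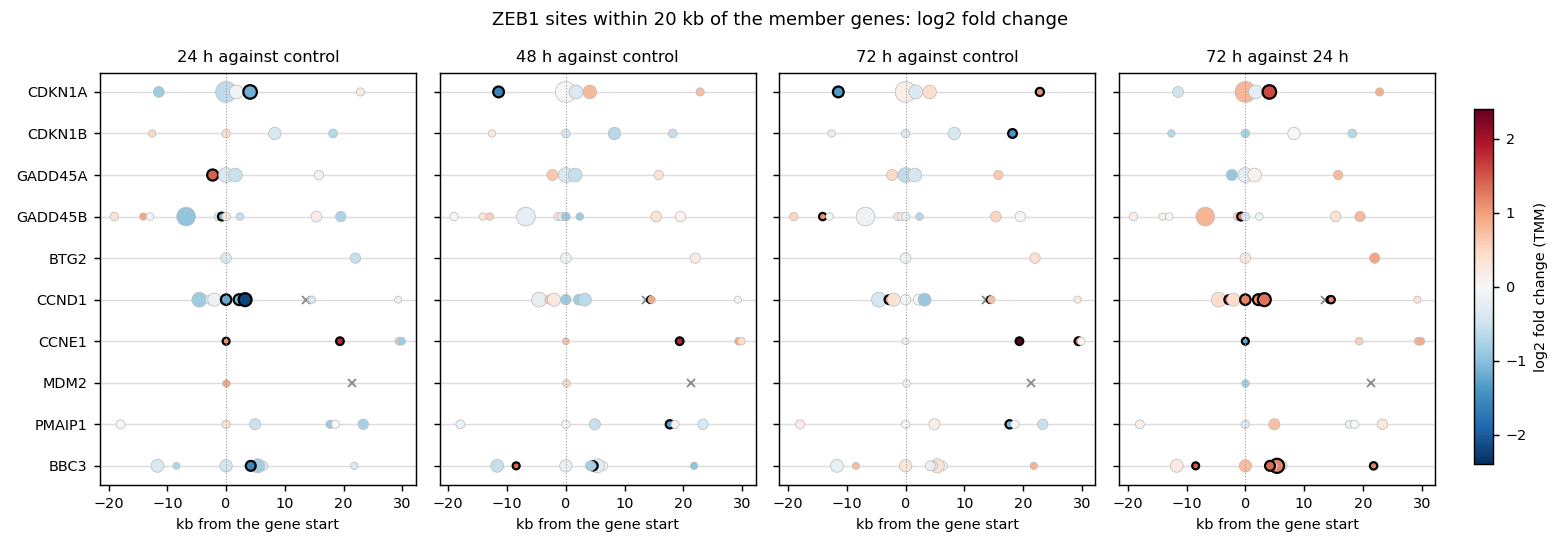
Each member site by its distance from the gene start in kb (horizontal axis), 1 row per gene, coloured by its log2 difference in 4 panels (24, 48 and 72 h against control, 72 h against 24 h); dot area grows with control CPM, black outlines mark called sites and crosses sites that were not tested. CCND1 sites around the start are lower at 24 h, and the CCNE1 site 19.4 kb past the start is higher at all 3 times.

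At the gene starts, ZEB1 was called at 2 of 10 sites: CCND1 was lower and CCNE1 higher at 24 h, and none was called at 48 or 72 h. Over all tested sites, 28.4% were called either way at 24 h, 18% at 48 h and 20.8% at 72 h. Per kb of site, the control levels ran from 164.9 CPM at GADD45A and 110.5 at CDKN1A down to 26.4 at MDM2 and 23.1 at CCNE1. The median log2 difference of the start sites from control was −0.07 after 24 h, −0.14 after 48 h and −0.08 after 72 h. With background scaling, 5, 8 and 10 of the 10 were lower at 24, 48 and 72 h, against 45.7%, 72.7% and 73.2% of all tested sites.

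**Figure D3:**
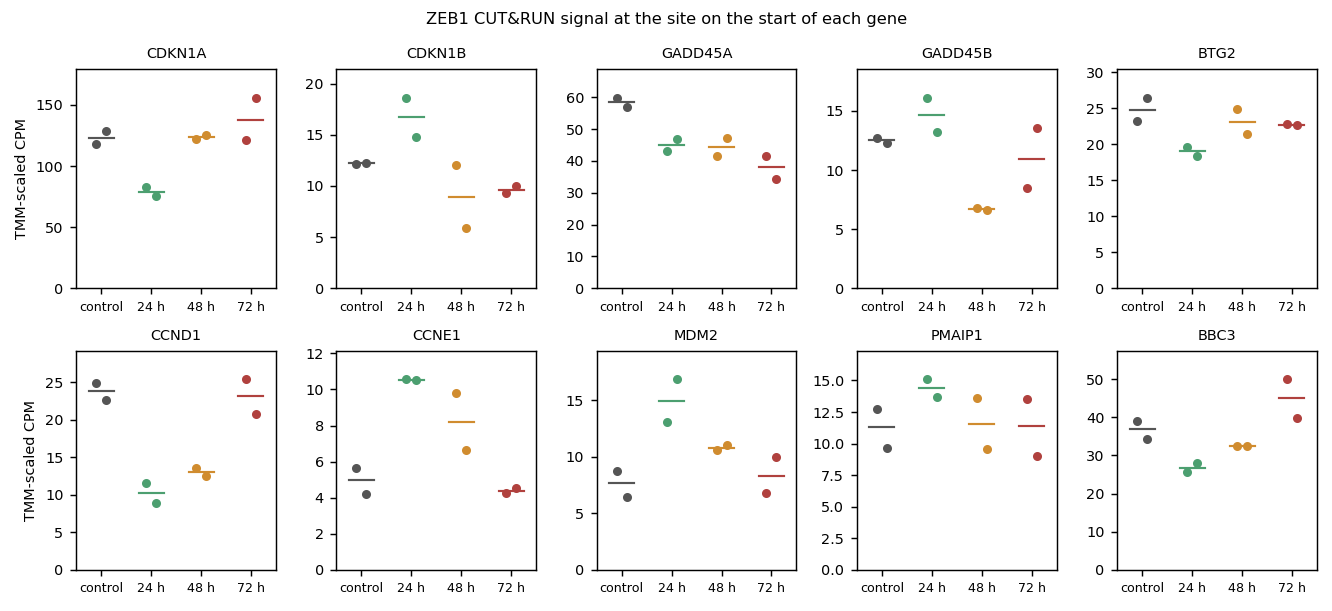
TMM-scaled CPM (vertical axis, linear, from 0) at the site on each gene start in the control and at 24, 48 and 72 h; points are the 2 libraries and bars the pooled value. Pooled values of CCND1, CDKN1A, BBC3 and BTG2 are lowest at 24 h, and those of CCNE1, MDM2, CDKN1B, GADD45B and PMAIP1 are highest there. Only CCND1 and CCNE1, both at 24 h, differ at least 2-fold from the control.

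CDKN1A, which encodes p21, was lower at 1 of its 5 sites at 24 h, at another at 48 and 72 h, and higher at 1 more at 72 h. Its signal summed over the 5 sites was 255 CPM in the control, 172 after 24 h, 268 after 48 h and 272 after 72 h. The site on its start (chromosome 6, 36678427 to 36679539) also covers part of DINOL, a noncoding RNA gene that p53 induces. It had 118 and 129 CPM in the control libraries, 82.5 and 75.4 after 24 h, 122 and 125 after 48 h, and 121 and 156 after 72 h. The 24 h libraries lay below all others, yet the log2 difference of −0.64 (95% counting interval −0.83 to −0.45, adjusted p = 1.3e-10) stayed short of the 2-fold minimum.

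Within CDKN1A, 4.1 kb past the start, a site (36682555 to 36683041) was lower at 24 h and higher again later. It had 44.8 and 48.4 CPM in the control, 25.1 and 16.3 after 24 h, 78.6 and 80.5 after 48 h, and 55.9 and 69.7 after 72 h. The log2 difference was −1.15 at 24 h (adjusted p = 7.75e-11), and the call was lost without 24 h library 2 (−0.91). At 72 h it was higher than at 24 h by 1.58 (1.18 to 2.00, adjusted p = 3.81e-14), and at 48 h it differed from control by 0.78, under the 2-fold minimum, and by −0.65 with background scaling. Upstream, 11.4 kb before the start, the site at 36667121 to 36667416 had 22.4 and 30.0 CPM in the control, 13.6 and 14.8 after 24 h, 6.80 and 10.3 after 48 h, and 10.2 and 9.96 after 72 h. No treated library reached the control there, with log2 differences of −1.59 at 48 h (adjusted p = 1.75e-07) and −1.36 at 72 h (adjusted p = 1.61e-05), and the 24 h difference of −0.87 missed the minimum unless control library 1 was left out (−1.11).

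The site 22.8 kb past the CDKN1A start (36701425 to 36701687) lies in RAB44, a neighbouring gene. It was higher at 72 h, with 25.4 and 20.8 CPM, against 11.6 and 10.0 in the control, a log2 difference of 1.09 that turned to −0.41 with background scaling. The call was lost without control library 2 (0.98) and without 72 h library 1 (0.94). The 48 h difference of 0.72 was called without 48 h library 1 (1.13), and that of 72 h from 24 h without 24 h library 1 (1.12) or 72 h library 2 (1.03). The remaining CDKN1A site, 1.7 kb past the start, was not called, with 48.9 CPM in the control and 38.1 to 45.3 after treatment.

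CDKN1B encodes p27, the second CDK inhibitor of the group, and its summed signal was 70.5 CPM in the control, 63.3 after 24 h, 50.4 after 48 h and 49.0 after 72 h. Its start site (chromosome 12, 12717029 to 12717359), which overlaps GPR19, had 12.2 and 12.3 CPM in the control, 18.6 and 14.8 after 24 h, 12.1 and 5.90 after 48 h, and 9.31 and 9.96 after 72 h, and was not called. The strongest site, 8.3 kb past the start (12725195 to 12726091), overlaps APOLD1. It had 37.3 CPM in the control, 28.1 after 24 h, 23.5 after 48 h and 28.0 after 72 h, and none of these differed 2-fold. The farthest site, 18.2 kb past the start (12735428 to 12735679) and within APOLD1, was lower at 72 h, with 5.93 and 4.53 CPM, against 13.6 and 14.2 in the control. That log2 difference of −1.39 (adjusted p = 0.00182) was not called by DESeq2, nor by edgeR without 72 h library 2 (−1.22), and the site was also called lower at 24 h once 24 h library 1 was left out.

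GADD45A, a stress-induced protein that restrains the cell cycle, was higher in ZEB1 at 1 of its 4 sites, at 24 h. That site, 2.3 kb before the start (chromosome 1, 67682708 to 67683123), had 24.9 and 31.3 CPM in the control, 70.4 and 78.5 after 24 h, 43.8 and 43.5 after 48 h, and 38.9 and 39.8 after 72 h. The 24 h libraries stood above all others, with a log2 difference of 1.41 (1.14 to 1.69, adjusted p = 1.04e-22) that was 0.48 with background scaling. At 72 h it was 0.92 below 24 h, short of the 2-fold minimum, which it passed without 24 h library 1 (−1.01). The start site (67685054 to 67685407) went the other way at 24 h without passing the minimum: 43.3 and 46.9 CPM at 24 h, against 59.8 and 56.8 in the control. A site 1.6 kb past the start had 33.0 CPM at 24 h, against 47.5 in the control, and a site 15.8 kb past it 16.0 CPM, against 17.2.

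GADD45B, a stress-induced relative of GADD45A, had 10 sites, of which 8 were not called against the control at any time. Its strongest site, 6.8 kb before the start (chromosome 19, 2468938 to 2469696), had 96.0 and 99.1 CPM in the control, 47.8 and 52.7 after 24 h, 81.6 and 84.9 after 48 h, and 84.7 and 92.4 after 72 h. Its log2 difference at 24 h, −0.96 (−1.20 to −0.72, adjusted p = 3.05e-16), lay just inside the 2-fold limit, and the 24 h libraries were again the lowest. It passed without control library 1 (−1.01) or 24 h library 2 (−1.05). Nearer the start, 0.7 kb before it (2475297 to 2475511), a weak site was lower at 24 h, with 4.53 and 3.69 CPM, against 10.2 and 7.74 in the control. Its log2 difference of −1.12 (adjusted p = 0.00657) was lost in DESeq2, without control library 1 (−0.93) and without 24 h library 2 (−1.01).

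That weak site was also higher at 72 h than at 24 h by 1.28, and this was lost in DESeq2, without 24 h library 2 (1.16) and without 72 h library 2 (0.73). The site 14.1 kb before the GADD45B start (2461828 to 2462221), in LINC01775, was higher at 72 h, with 14.4 and 11.8 CPM, against 5.10 and 7.74 in the control. Its log2 difference of 1.04 was −0.45 with background scaling, and was lost in DESeq2, without control library 1 (0.75) and without 72 h library 1 (0.89). Its 24 h difference of 0.93 was called without control library 2 or 24 h library 1. The start site of GADD45B (2475909 to 2476191) was not called: 12.5 CPM in the control, 14.7 after 24 h, 6.72 after 48 h and 10.9 after 72 h.

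BTG2, a p53-induced antiproliferative protein, had 2 sites and no call against control or between 72 and 24 h. The start site (chromosome 1, 203305229 to 203305734), which overlaps the divergent BTG2-DT, had 23.2 and 26.5 CPM in the control, 19.6 and 18.5 after 24 h, 24.9 and 21.4 after 48 h, and 22.9 and 22.6 after 72 h. The site 22.0 kb past the start (203327210 to 203327843) had 15.4 CPM at 24 h, against 22.9 in the control, and 29.7 CPM at 72 h, a log2 difference of 0.94 from 24 h that missed the minimum and passed it without 24 h library 1 (1.22).

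CCND1, the gene of cyclin D1, had 10 sites, and the 3 from its start to 3.2 kb inside the gene were lower at 24 h. All 3 had a peak in the authors' control list alone, so their drop is partly fixed by how the sites were made. Summed over all CCND1 sites, the signal was 225 CPM in the control, 130 after 24 h, 208 after 48 h and 234 after 72 h. The strongest change was 3.2 kb past the start (chromosome 11, 69644192 to 69644575), where the control libraries had 42.2 and 41.3 CPM, those of 24 h 10.6 and 7.38, those of 48 h 31.7 and 21.4, and those of 72 h 23.7 and 20.8. The log2 difference of −2.21 after 24 h (−2.77 to −1.70, adjusted p = 2.78e-21) was the largest drop among the members, and after 72 h the site was higher than after 24 h by 1.30 (adjusted p = 0.000257).

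At the CCND1 start itself (69641092 to 69641443), the control libraries had 24.9 and 22.6 CPM, those of 24 h 11.6 and 8.96, those of 48 h 13.6 and 12.5, and those of 72 h 25.4 and 20.8. The 24 and 48 h libraries lay below the other 4. It was lower after 24 h by a log2 difference of −1.21 (adjusted p = 1.85e-06), and higher after 72 h than after 24 h by 1.17 (adjusted p = 0.000708). A site 2.2 kb past the start (69643173 to 69643566) had 15.1 and 10.0 CPM at 24 h, against 26.1 and 26.8 in the control, a log2 difference of −1.06 that was lost without 24 h library 2 (−0.83). It was 1.10 higher at 72 h than at 24 h, which was lost without 24 h library 2 (0.86) and without 72 h library 2 (0.82).

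Farther from the CCND1 start, 1 site was higher at 48 and 72 h. This site, 14.3 kb past the start (69655415 to 69655588) and 1028 bases beyond the gene, had 1.70 and 3.55 CPM in the control, 1.51 and 4.74 after 24 h, 8.31 and 9.59 after 48 h, and 10.2 and 10.9 after 72 h. No library of 48 or 72 h overlapped the earlier ones, with log2 differences from control of 1.78 at 48 h (adjusted p = 0.000499, not called by DESeq2) and 2.01 at 72 h (1.08 to 3.02, adjusted p = 7.29e-05). With background scaling these were 0.38 and 0.52. Compared with 24 h, the 72 h level was 1.74 higher, a call lost in DESeq2 and without 24 h library 1 (1.12). The site had a peak in the 72 h list alone, so these rises at 72 h are largely fixed by how the sites were made. A neighbouring site at 14.6 kb (69655616 to 69655886) was not called against the control and was 1.13 higher at 72 h than at 24 h, and this was lost in DESeq2, without 24 h library 1 (1.24) or 2 (1.05) and without 72 h library 1 (0.68).

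Upstream of CCND1, the site 2.8 kb before the start (69638203 to 69638477) had 27.9 and 29.9 CPM at 72 h, against 13.3 and 15.5 in the control. Its log2 difference of 1.01 was −0.49 with background scaling, and was lost in DESeq2, without control library 1 (0.89) and without 72 h library 2 (0.96). Against 24 h, with 13.1 and 10.5 CPM, it was 1.28 higher (adjusted p = 3.41e-05). The strongest site per kb of all members, 2.0 kb before the start (69639019 to 69639258), had 42.7 CPM in the control, 39.4 after 24 h, 50.04 after 48 h and 54.2 after 72 h, and was not called. The site 4.6 kb before the start, with the highest control CPM of the gene, had 31.4 CPM at 24 h, against 57.6 in the control, short of 2-fold. Of the other 2 sites, the one 13.6 kb past the start, of 33 bases, had too few counts to test, and the one 29.3 kb past it was not called.

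**Figure D4:**
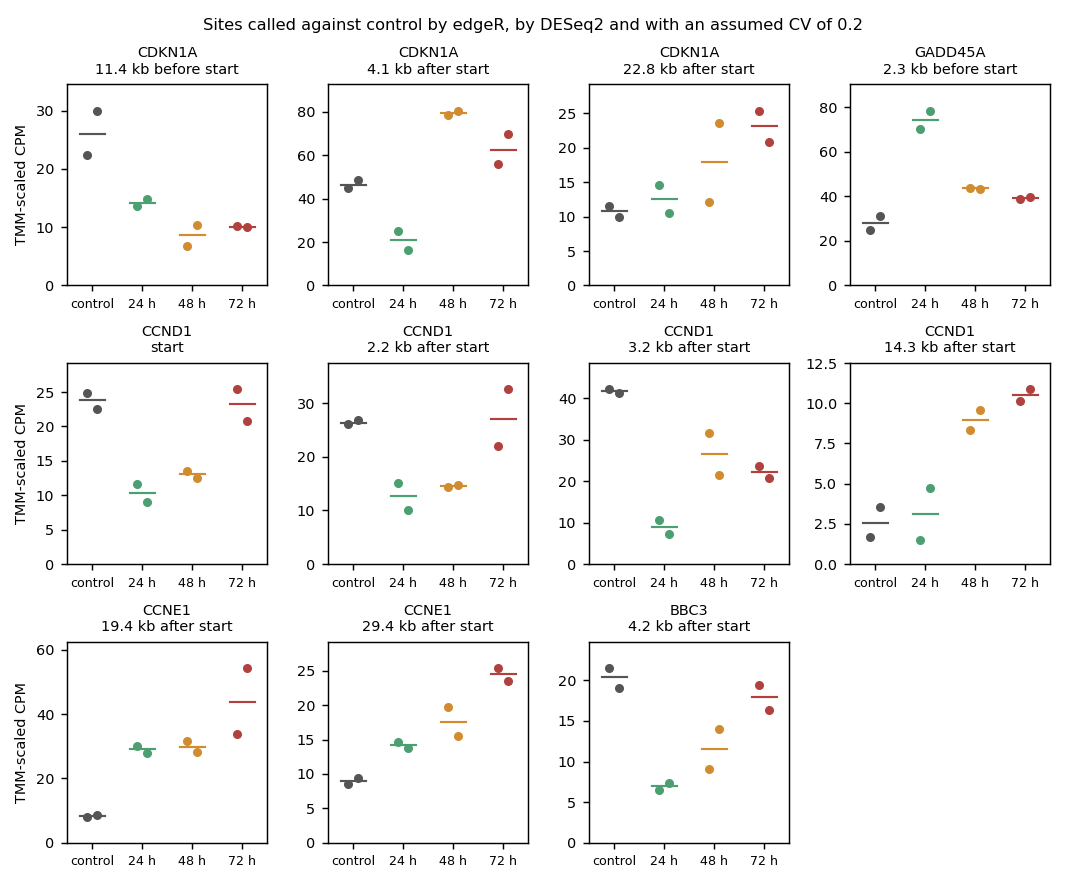
TMM-scaled CPM (vertical axis, linear, from 0) of the 11 member sites called against control by edgeR, by DESeq2 and with an assumed coefficient of variation of 0.2, in the control and at each time, with points for the 2 libraries and bars for the pooled value. The CCNE1 site 19.4 kb past the start is above the control in every treated library, and the CCND1 site 3.2 kb past the start is lowest at 24 h.

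With TMM, CCNE1, the gene of cyclin E1, had more summed ZEB1 signal at all 3 times than in the control: over its 4 sites it had 31.1 CPM in the control, 58.7 after 24 h, 68.0 after 48 h and 81.8 after 72 h. Sums were not made with background scaling, where only the site 19.4 kb past the start was above the control at all 3 times. The largest difference was at the site 19.4 kb past the start (chromosome 19, 29831203 to 29831505), 7042 bases beyond the gene, with the nearest other gene, URI1, 92303 bases away. Its libraries had 7.93 and 8.71 CPM in the control, 30.2 and 27.9 after 24 h, 31.7 and 28.1 after 48 h, and 33.9 and 54.3 after 72 h. Every treated library was above the control, with log2 differences of 1.80 (adjusted p = 1.16e-13), 1.84 (adjusted p = 1.03e-11) and 2.39 (1.91 to 2.90, adjusted p = 2.92e-20). The calls held in DESeq2 and without any single library, and the differences were 0.87, 0.42 and 0.89 with background scaling.

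A farther site, 29.4 kb past the CCNE1 start (29841309 to 29841489), had 8.50 and 9.36 CPM in the control, 14.6 and 13.7 after 24 h, 19.6 and 15.5 after 48 h, and 25.4 and 23.5 after 72 h. With all libraries only the 72 h difference was called, at 1.45 (adjusted p = 1.55e-06), and it was −0.04 with background scaling. The 48 h difference of 0.97 was called without control library 2 (1.04) or 48 h library 2 (1.16). The start site (29811764 to 29811979), inside the promoter printed above, was higher at 24 h, with 10.6 and 10.5 CPM, against 5.67 and 4.19 in the control. That log2 difference of 1.07 (adjusted p = 0.00338, 0.15 with background scaling) was lost in DESeq2 and without control library 2 (0.86). At 72 h the start site was 1.26 lower than at 24 h, with 4.23 and 4.53 CPM, a call that ended in DESeq2 and whichever of the 4 libraries was left out (−1.29 to −1.19). The remaining site, 29.9 kb past the start, was not called.

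MDM2, the ligase that degrades p53, had 2 sites, and neither was called. The site on the upstream start (chromosome 12, 68807926 to 68808216) had 8.78 and 6.45 CPM in the control, 13.1 and 16.9 after 24 h, 10.6 and 11.1 after 48 h, and 6.77 and 9.96 after 72 h. The 24 h libraries were the highest and did not overlap the others, but the log2 difference of 0.95 (0.39 to 1.53, adjusted p = 0.00163) missed the 2-fold minimum and was 0.02 with background scaling. It passed without control library 1 (1.17) or without 24 h library 1 (1.14), and was smaller without control library 2 (0.73) or 24 h library 2 (0.74). The adjusted p was 0.0976 in DESeq2 and 0.052 in edgeR with an assumed coefficient of variation of 0.2, so neither reached 0.05. Between 72 h and 24 h the log2 difference was −0.84, and −1.03 and called without 24 h library 1. The second site, 21.4 kb past the start (68830327 to 68830450), had 4.98 CPM in the control, 4.12 after 24 h, 3.73 after 48 h and 4.38 after 72 h and too few counts to test. The downstream promoter printed above, with its CAGGTG, was not overlapped by a consensus site.

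PMAIP1, which encodes the cell-death protein NOXA, had 6 sites and 1 of them was called. The site 17.7 kb past the start (chromosome 18, 59917621 to 59917757) had 11.6 and 10.3 CPM in the control, 6.54 and 5.27 after 24 h, 6.05 and 2.95 after 48 h, and 5.08 and 5.43 after 72 h. All treated libraries were below the control, with log2 differences of −1.28 at 48 h (adjusted p = 0.00626) and −1.06 at 72 h (adjusted p = 0.0299). Neither call was kept in DESeq2. The first ended without 48 h library 2 (−0.84), and the second without control library 1 (−0.97), 72 h library 1 (−1.01) or 72 h library 2 (−1.11). Without 24 h library 1 the 24 h difference was called too (−1.04). The start site (59899734 to 59900070) had 11.3 CPM in the control, 14.4 after 24 h, 11.6 after 48 h and 11.4 after 72 h. The strongest site, 4.9 kb past the start, had 19.6 CPM at 24 h, against 28.1 in the control, under the 2-fold minimum.

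BBC3, which encodes PUMA, an activator of apoptosis, was lower at 1 of its 8 sites after 24 h, and 4 were higher after 72 h than after 24 h. Its summed signal was 193 CPM in the control, 126 after 24 h, 153 after 48 h and 214 after 72 h. The site 4.2 kb past the start (chromosome 19, 47228301 to 47228645) had 21.5 and 19.0 CPM in the control, 6.54 and 7.38 after 24 h, 9.07 and 14.0 after 48 h, and 19.5 and 16.3 after 72 h. Its 24 h libraries were the lowest, with a log2 difference of −1.54 (−2.21 to −0.95, adjusted p = 9.95e-08), and at 72 h it was 1.36 higher than at 24 h (adjusted p = 0.000751). Without 48 h library 2 it was called lower at 48 h too (−1.14). The strongest BBC3 site, 5.4 kb past the start (47226929 to 47227637), overlaps the microRNA gene MIR3190. It had 52.98 and 49.7 CPM in the control, 32.7 and 24.8 after 24 h, 43.1 and 41.3 after 48 h, and 67.7 and 63.4 after 72 h, and was 1.19 higher after 72 h than after 24 h (adjusted p = 1.28e-09). Without 24 h library 1 it was also called lower at 24 h than in the control (−1.04).

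Other BBC3 sites gave less firm calls. The site 4.6 kb past the start (47227948 to 47228128) was lower at 48 h, with 6.80 and 8.86 CPM, against 16.7 and 15.8 in the control. Its log2 difference of −1.05 was lost in DESeq2, without control library 1 (−1.0) and without 48 h library 1 (−0.86). The site 8.5 kb before the start (47241061 to 47241176) overlaps LOC124904731. It was higher at 48 h, with 12.8 and 14.0 CPM, against 5.38 and 4.84 in the control. That log2 difference of 1.38 was −0.03 with background scaling and not called by DESeq2. The same site was 1.48 higher at 72 h than at 24 h, which DESeq2 did not call and which was lost without 24 h library 1 (1.22), 72 h library 1 (1.55) or 72 h library 2 (1.46). Near SAE1, 21.8 kb past the BBC3 start, a site (47210732 to 47210968) was 1.19 higher at 72 h than at 24 h, which was lost in DESeq2, without 24 h library 2 (1.10) and without 72 h library 2 (0.87). The start site (47232518 to 47233062), whose promoter holds the TACCTG, had 39.1 and 34.2 CPM in the control, 25.7 and 27.9 after 24 h, 32.5 and 32.5 after 48 h, and 49.9 and 39.8 after 72 h, and was not called.

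**Figure D5:**
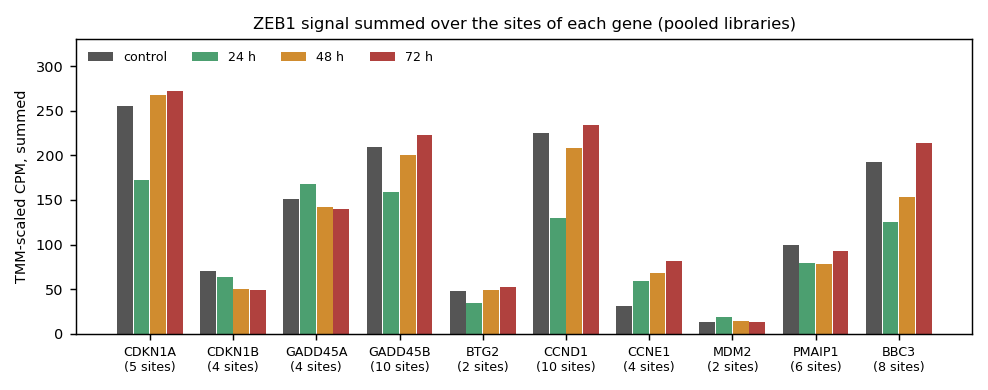
TMM-scaled CPM summed over the sites of each gene (vertical axis, linear, from 0) in the control and at 24, 48 and 72 h, pooled over the 2 libraries of a condition. CCND1 had 130 CPM at 24 h, against 225 in the control, and CCNE1 had 81.8 at 72 h, against 31.1.

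In the peak lists that the authors deposited, 1 per condition and with peaks named for replicate 1, fewer member sites carried a peak at each later time. A peak shared a base with 52 of the 55 sites in the control list, 30 in the 24 h list, 21 in the 48 h list and 18 in the 72 h list. These were 94.5%, 54.5%, 38.2% and 32.7% of the members, against 86.6%, 61.3%, 39.4% and 32.1% of all consensus sites. Counts within consensus sites fell in the same order. The background level of the peak lists was 108%, 100.8% and 95.19% of the control at 24, 48 and 72 h. The part of sequencing depth in the loss of peaks was not tested. In all 4 lists a peak was present at 12 members (21.8%), against 24.1% of all consensus sites, and 20 members (36.4%) had one in the control list alone, against 29.9%. In the control list, the authors' fold enrichment among the members was highest at the BBC3 site 11.7 kb before the start (17.6), the GADD45B site 6.8 kb before the start (16.2) and the PMAIP1 site 23.3 kb past the start (15.3). The 3 members without a control peak were the CCND1 site at 14.3 kb, the GADD45B site at −14.1 kb and the BBC3 site at −8.5 kb. Each was in the consensus through a peak in 1 treated list, that of 72, 24 and 48 h in that order, so their being higher than the control in a treated condition is largely fixed by how the sites were made. At the CCND1 site this holds for 72 h against 24 h too. The reverse limit holds for members called lower that had a peak in the control list alone. At 24 h these were the GADD45B site at −0.7 kb and the BBC3 site at 4.2 kb. At CCND1 they were the start site and those at 2.2 and 3.2 kb, also at 24 h. Later ones were the BBC3 site at 4.6 kb (48 h) and the PMAIP1 site at 17.7 kb (48 and 72 h). Their being lower than the control is likewise partly fixed by how the sites were made.

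Other p53 targets and other genes of the G1 phase and its exit were counted by the same rule. Which lists held a peak at their sites is not given here, so the limit from how sites were made may apply to them too. Of 32 other p53 targets, 30 had a site, and of their 100 tested sites 6 were lower and 12 higher after 24 h, 5 and 7 after 48 h, and 4 and 7 after 72 h. Over all tested sites, 13.5% were lower and 14.9% higher after 24 h, 7.55% and 10.5% after 48 h, and 8.55% and 12.2% after 72 h. POLK, a translesion DNA polymerase, had the smallest p of those higher at 24 h, with 23.2 CPM at 24 h, against 2.56 in the control, at a site inside the gene (chromosome 5, 75602032 to 75602378), a log2 difference of 3.14 that was 2.23 with background scaling. MDM4, the partner of MDM2 in restraining p53, was higher upstream of its start at all 3 times, with log2 differences of 1.39, 1.21 and 1.18, and these were 0.46, −0.21 and −0.32 with background scaling. PLK3, a stress-responsive kinase, was lower at an upstream site (chromosome 1, 44793646 to 44793924) at 24 h, with 18.8 CPM, against 54.5 in the control.

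Among 20 other genes of G1 and G1/S, 18 had a site, and of their 70 tested sites 7 were lower and 13 higher after 24 h, 2 and 4 after 48 h, and 2 and 1 after 72 h. The 24 h shares were 10% lower and 18.6% higher, against 13.5% and 14.9% of all tested sites. At 48 h they were 2.86% and 5.71%, against 7.55% and 10.5%, and at 72 h 2.86% and 1.43%, against 8.55% and 12.2%. CDK6, a kinase partner of cyclin D1, had an internal site (chromosome 7, 92625712 to 92625924) with 14.6 CPM after 48 h, against 2.26 in the control, and log2 differences of 2.65 after 48 h and 2.77 after 72 h. CCND3, the gene of cyclin D3, was higher at its start at 24 h, with 71.6 CPM, against 33.5 in the control, by 1.09, or 0.16 with background scaling. Another CCND3 site (chromosome 6, 42045712 to 42045981) was lower at all 3 times, with log2 differences of −1.37, −1.19 and −1.42. A further CDK6 site (92696005 to 92696217) was lower at 48 and 72 h, by −1.37 and −2.12. At 24 h the median log2 difference from control was 0.22 over these G1 sites and −0.23 over the other p53 targets, against −0.38 for the 10 genes and 0.02 over all tested sites.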

How the data were processed

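ZEB1 CUT&RUN counts over consensus sites and 1 peak list per condition were used. Per the submitters' processing notes, which give no role or order, the tools included Bowtie2 2.2.6, MACS2 2.1.1, featureCounts, bedtools 2.30.0, Picard, deepTools, cutadapt 2.4 and bcl2fastq 2.20.0.422, and the build was hg38. The deposited count table holds whole-number counts without normalization, the unit of counting (reads or fragments) being not given in the sources used here. The deposited peak lists hold, per peak, a score, a fold enrichment over the local background (ratio), −log10 p-values and −log10 q-values, and the distance of the summit from the peak's start, as the authors' peak caller gave them, and each is listed, per the labels, for both libraries of a condition, though its peak names carry replicate 1 only. Of the columns of the count table, 0 belonged to no sample.

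A site was linked to a gene where its midpoint lay in the RefSeq gene (GRCh38.p14) or within 20 kb of it. The strand of GADD45A and CCND1, which the promoter table did not give, was set from background knowledge. Counts were tested with edgeR 4.0.16 in R 4.3.3 (quasi-likelihood, robust, TMM scaling, low counts filtered by condition, Benjamini-Hochberg adjustment over 46436 sites, two-sided), after a check on simulated counts. The estimated common dispersion was 9.77e-05, which measures spread between the 2 libraries of a condition and not between cultures. Intervals are 95% exact intervals for the ratio of pooled counts. Sites named in full were, per gene, the strongest, the one nearest the start and each one called at any time; sites called in the 72 h to 24 h comparison alone were added after their values were seen. In the other pathway genes, those named came from the called sites with the smallest p. The genes and lists were chosen with earlier results of these data known. Background scaling used the floor of the peak caller, recovered from the fold and −log10 p columns that the authors deposited: it was 108%, 100.8% and 95.19% of the control at 24, 48 and 72 h, and site counts per floor of library 1 were 49.04%, 37.51% and 35.63% of the control. Alternatives were DESeq2 1.42.0, other scalings, filters, fold minimums, windows, an assumed coefficient of variation of 0.2, each library left out, and the replicate number as a block. Correlations of same-numbered libraries' deviations ran from −0.012 to 0.005, so the numbers do not pair the samples.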

Additional observations from a re-analysis of the deposited data

Results flagged for a closer look

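The log2 difference between 72 h and 24 h passed the test at 13 member sites, so at these the 72 h libraries differ from the 24 h libraries as well as, or instead of, from the control. It was 1.58 at the CDKN1A site at 36682555 and 1.28 at the GADD45B site at 2475297. At CCND1 it was 1.28 (69638203), 1.17 (69641092), 1.10 (69643173), 1.30 (69644192), 1.74 (69655415) and 1.13 (69655616). At BBC3 it was 1.19 (47210732), 1.19 (47226929), 1.36 (47228301) and 1.48 (47241061). At the CCNE1 start (29811764) it was −1.26. The CCND1 site at 69655415 had a peak in the 72 h list alone, so its difference is largely fixed by how the sites were made. Of the 13, 6 were also called by DESeq2, at an assumed spread between cultures of 0.2 (coefficient of variation), and with any 1 library left out.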

How the results depend on the processing

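Among the member counts at 24 h (6 lower, 3 higher), the lower count was 14 with TMM from the lowest-count tercile of sites, 36 with background scaling, 24 without the fold minimum, 17 with a 1.5-fold minimum and 14 within 50 kb, and 4 to 10 with 1 library left out. The higher count was 0 with background scaling, 5 with library totals, 6 without the fold minimum, 6 with 1.5-fold, 5 within 50 kb, and 3 to 5 with 1 library left out. At 48 h (3 and 3), the lower count was 1 with DESeq2, 9 with the lowest-count tercile, 1 with a coefficient of variation of 0.2, 40 with background scaling, 13 without the fold minimum, 9 with 1.5-fold, 1 within 5 kb and 7 within 50 kb. The higher count was 1 with DESeq2, 0 with background scaling, 9 without the fold minimum, 9 with 1.5-fold, 1 within 5 kb and 5 within 50 kb. At 72 h (3 and 6), the lower count was 1 with DESeq2, 41 with background scaling, 7 without the fold minimum, 5 with 1.5-fold, 0 within 5 kb, 6 within 50 kb, and 1 to 3 with 1 library left out. The higher count was 3 with the lowest-count tercile, 0 with background scaling, 11 without the fold minimum and 2 within 5 kb. Between 72 and 24 h (1 and 12), the lower count was 0 with DESeq2 and with a coefficient of variation of 0.2, 7 with background scaling, 2 with library totals, without the fold minimum, with 1.5-fold and within 50 kb, and 0 to 2 with 1 library left out. The higher count was 7 with DESeq2, 2 with background scaling, 23 without the fold minimum and 22 with 1.5-fold. Where a peak had to cover at least 50% of the site, 11 members in place of 21 had one at 48 h. The cause of these differences was not tested, beyond what the fold minimum or window itself changes.

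Of 140 log2 values at single sites, 44 changed sign with background scaling, and 22 of these were called with TMM or with background scaling. Without a call in either fit, 13 changed sign with the lowest-count tercile, 1 each with DESeq2, library totals and no filter, and 1 to 6 with 1 library left out. Of the 22, those at 48 h were CDKN1A 36678427 (−1.41), GADD45B 2461828 (−1.11), CCND1 69639019 (−1.19), PMAIP1 59899734 (−1.38), BBC3 47241061 (−0.033) and BTG2 203327210 (−1.23). Those at 72 h were CDKN1A 36678427 (−1.34), 36682555 (−1.07) and 36701425 (−0.41), GADD45A 67682708 (−1.01), GADD45B 2461828 (−0.45) and 2475297 (−1.34), MDM2 68807926 (−1.38), CCND1 69638203 (−0.49), 69639019 (−1.16) and 69643173 (−1.46), CCNE1 29841309 (−0.044), PMAIP1 59899734 (−1.49) and 59904717 (−1.31), BBC3 47226929 (−1.15) and 47232518 (−1.21), and BTG2 203327210 (−1.13). The replicate number as a block changed no call: the 24 h counts were 6 lower and 3 higher with it. A library left alone in its condition was assumed to vary like the other pairs. Sites of few counts, such as the CCND1 site at 69655415, have wide intervals.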
